A study of Arabidopsis thaliana with 12 samples.

Results

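The genes described here encode subunits of the plant Mediator complex. They are 33 Arabidopsis thaliana loci given by a list of locus identifiers, with 10 genes of the head module, 9 of the middle, 9 of the tail and 5 of the kinase module. All 33 were among the 21543 loci of the deposited count table, and all 33 were among the 20741 loci that passed the filter on low counts. Mediator is a large complex that links transcription factors bound to DNA with RNA polymerase II at promoters. Its head and middle contact the polymerase, its tail receives many of the transcription factors, and a detachable kinase module of a cyclin-dependent kinase, a cyclin C and the subunits MED12 and MED13 controls how the rest engages the polymerase. In Arabidopsis, Mediator subunits are known for roles in stress responses, hormone signalling and flowering.

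The series profiled RNA of whole seedlings after 2 weeks on agar medium, in a study of MED8 in oxidative stress. There were 4 groups of 3 libraries, namely med8 mutant seedlings on 25 nM methyl viologen, med8 seedlings on control medium, wild-type Col-0 seedlings on 25 nM methyl viologen, and Col-0 seedlings on control medium. Methyl viologen is a herbicide that takes electrons from photosystem I and passes them to oxygen, which forms superoxide. The labels call the mutant med8 without naming its allele, and gene counts do not show where along a gene the reads lie.

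The libraries held 30.47 to 34.69 M counts, and the 33 genes together took 0.0632% to 0.0785% of a library. No label says whether the replicates came from separate plants or plates, so the p-values measure the spread between these libraries. Among the libraries of each group, Col-0 control replicate 1 and med8 control replicate 3 stood apart from their partners. All 5 leaf markers were present in every library, with summed levels of 32564 to 39581 CPM in med8 on methyl viologen, 49184 to 59567 CPM in med8 on control medium, 36488 to 38186 CPM in methyl viologen-grown Col-0 and 44083 to 54872 CPM in Col-0 on control medium. The 11 root markers summed to 174 to 374 CPM in med8 on control medium, with a median of 348 CPM, and to 283 to 376 CPM over the other groups. The low end was med8 control replicate 3, a library that stood apart. The 3 flower markers summed to 0.285 to 2.77 CPM over all libraries. Markers of a tissue did not always move together. With methyl viologen in Col-0, 1 of the 5 leaf markers was higher and 2 were lower at an edgeR adjusted p below 0.05. Their log2 differences ran from -1.622 to 0.557. In med8 all 5 were lower, at -0.754 to -0.59. Of the 11 root markers, 2 were higher and 4 lower with methyl viologen in med8. The log2 differences of the 11 ran from -2.214 to 1.288. In Col-0, 2 root markers were higher and 3 lower, and the 11 ran from -1.315 to 0.54. The sums alone do not tell a shift of tissue from changes of single genes, and the part of tissue make-up in the results below was not tested. In RNA of whole seedlings, fewer cells of a type and less RNA per cell cannot be told apart.

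CPM below is a count scaled to a common library size with TMM factors, a fold change is log2 of the first group over the second with its SE from edgeR's quasi-likelihood test, and a gene is said to have risen or fallen where its p adjusted over all 20741 loci was below 0.05. Across the 12 libraries, level per length was highest for the Med10 gene AT1G26665, a middle subunit gene, at 28.6 CPM per kilobase of exon. The next gene, MED19A of the middle module, had 14.4 CPM per kilobase, and MED15A of the tail, whose protein binds activators, had 14.2. The libraries of MED19A and MED15A overlapped. The lowest level per length was that of MED10A, the paralog of AT1G26665, at 2.96 CPM per kilobase. Its libraries overlapped those of the next lowest, the head gene AT5G63480, at 3.67 CPM per kilobase.

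**Figure D1:**
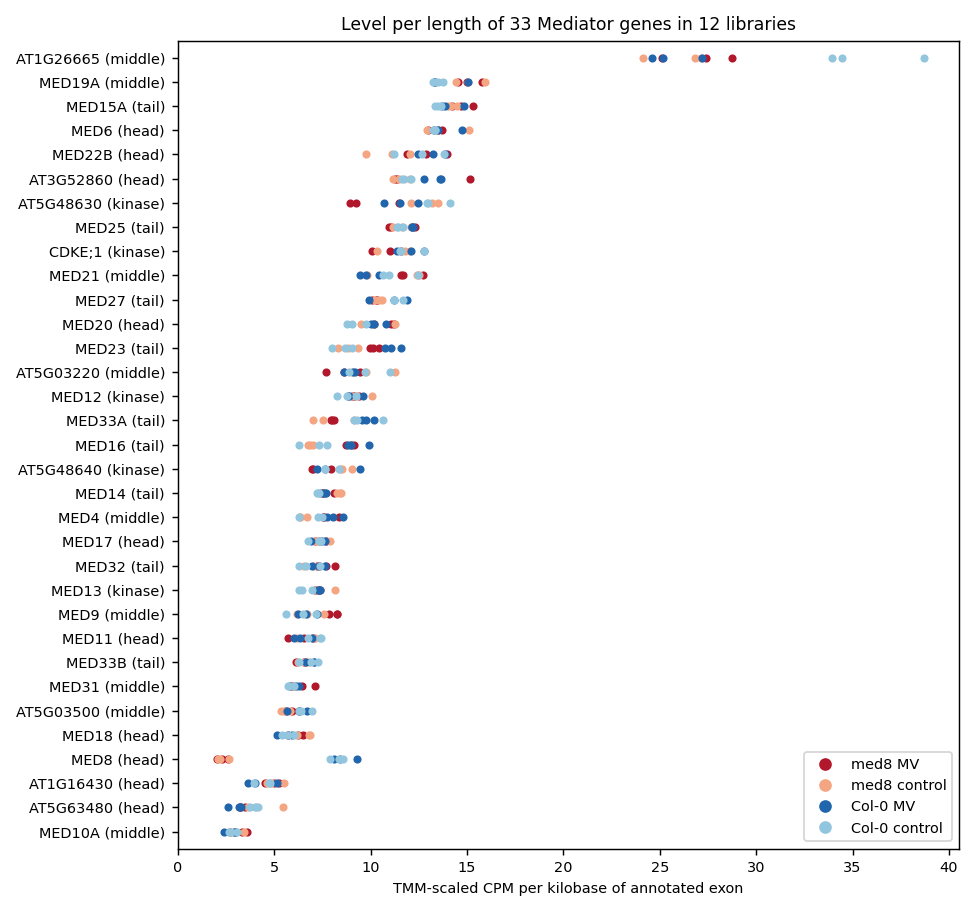
Level per length (TMM-scaled CPM per kilobase of annotated exon, horizontal axis) of the 33 Mediator genes in each of the 12 libraries, ordered by their mean and coloured by group. AT1G26665 lies to the right of every other gene at a mean of 28.6, and MED8 splits into low med8 and high Col-0 libraries.

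The levels of the other genes differed little between groups. Without MED8, the highest group mean was a median of 1.17 times the lowest, and at most 1.45 times, the value of the head gene AT5G63480. By comparison, 40.7% of all loci tested, and 30.8% of those with total counts in the range of these genes, had group means more than 1.5-fold apart, against 0 of the 32 Mediator genes. The spread between replicates was also smaller for the 32 genes. Their median SD within a group was 6.06% of the mean, against 9.61% and 8.13% for those sets. The part of that spread in the contrast was not tested. The summed level of the 32 genes was 702 ± 9.53 CPM in med8 on methyl viologen, 692 ± 16.2 CPM in med8 on control medium, 717 ± 3.33 CPM in methyl viologen-grown Col-0 and 685 ± 7.25 CPM in Col-0 on control medium (SD, n = 3 each).

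MED8, a head subunit and the gene mutated in the study, lies at chr2:905513-909272 on the plus strand (TAIR10.1), and no annotated gene overlaps it. On methyl viologen it had 6.21, 5.47 and 4.85 CPM in med8 libraries, against 22.2, 19.4 and 20.2 CPM in Col-0 libraries. On control medium it had 5.06, 5.23 and 6.41 CPM in med8 libraries, against 20.5, 20 and 18.9 CPM in Col-0 libraries. Every med8 library lay below every Col-0 library. MED8 fell by 1.90 ± 0.112 on the log2 scale in med8 on methyl viologen (edgeR adjusted p = 1.21e-06) and fell by 1.83 ± 0.113 on control medium (edgeR adjusted p = 5.51e-05), which left 26.8% and 28.1% of the Col-0 level. The 147 to 215 counts in each med8 library are well above 0, so reads from the locus were still present in the mutant. For methyl viologen against control the difference was -0.016 in med8 (95% interval -0.27 to 0.239) and 0.058 in Col-0 (-0.171 to 0.287).

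In med8 against Col-0 on methyl viologen, MED8 and MED33A of the tail fell and no Mediator gene rose. The 2 called genes of 33 compare with 23.7% of all loci tested (10.8% higher and 12.9% lower), and 5 of the 33 had an unadjusted p below 0.05. The median fold change of the 33 genes was -0.015, against 0.011 over all loci tested. All med8 libraries lay above the Col-0 libraries for 2 of the 33 genes and below them for 4. Over the 20741 loci tested the counts were 4801 and 4810. MED33A, a large tail subunit that is also known for a role in phenylpropanoid metabolism, had 35.2, 34.6 and 34.5 CPM in med8 libraries, against 44.0, 41.3 and 42.3 CPM in Col-0 libraries. The med8 libraries all lay below the Col-0 libraries. Its fold change was -0.29 ± 0.092 (edgeR adjusted p = 0.0381). This call was lost in 8 of 20 alternative fits, with adjusted p up to 0.118: under upper-quartile scaling, without any one of the methyl viologen libraries of either genotype, and without Col-0 control replicate 3.

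On control medium, MED33A had 32.6, 30.3 and 39.5 CPM in med8 libraries, against 46.0, 39.6 and 40.2 CPM in Col-0 libraries. The med8 libraries were all lower, with replicate 3 close to the lowest Col-0 library, and the fold change of -0.30 ± 0.092 did not pass (edgeR adjusted p = 0.083). Only 2 of 20 alternative fits called it, both without med8 control replicate 3, and the adjusted p reached 0.29 in the others. In 1 of the 2, which also left out Col-0 control replicate 1, it was -0.33 with an edgeR adjusted p of 0.0118. Its paralog MED33B, with 61.5% identical coding bases, had 27.0, 27.3 and 25.2 CPM in med8 libraries on methyl viologen, against 27.4, 29.2 and 29.2 CPM in Col-0 libraries. The med8 libraries lay just below the Col-0 libraries, but the difference of -0.11 (95% interval -0.256 to 0.037) did not pass, and on control medium the difference was -0.060 (-0.208 to 0.088).

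In med8 against Col-0 on control medium, MED8 and AT1G26665 fell and MED14 rose. The 3 called genes of 33 compare with 5.79% of all loci tested (2.81% higher and 2.98% lower), MED8 being the mutated gene itself. The median fold change was 0.029, against 0.003 over all loci tested. All med8 libraries lay above the Col-0 libraries for 6 of the 33 genes and below them for 5. Over the 20741 loci tested the counts were 2459 and 2365. MED14, the subunit that in yeast and mammals forms the backbone joining head, middle and tail, had 47.0, 47.2 and 46.3 CPM in med8 libraries, against 40.4, 40.9 and 40.8 CPM in Col-0 libraries. The groups did not overlap. Its fold change was 0.20 ± 0.050 (edgeR adjusted p = 0.0366), a call lost in 9 of 20 alternative fits, with adjusted p up to 0.144. Those were the replicate block, the groups compared alone, and the fits without any one Col-0 control library, Col-0 methyl viologen replicate 1, med8 control replicate 1 or 2, or med8 methyl viologen replicate 2. On methyl viologen MED14 differed by 0.026 (95% interval -0.083 to 0.134).

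**Figure D2:**
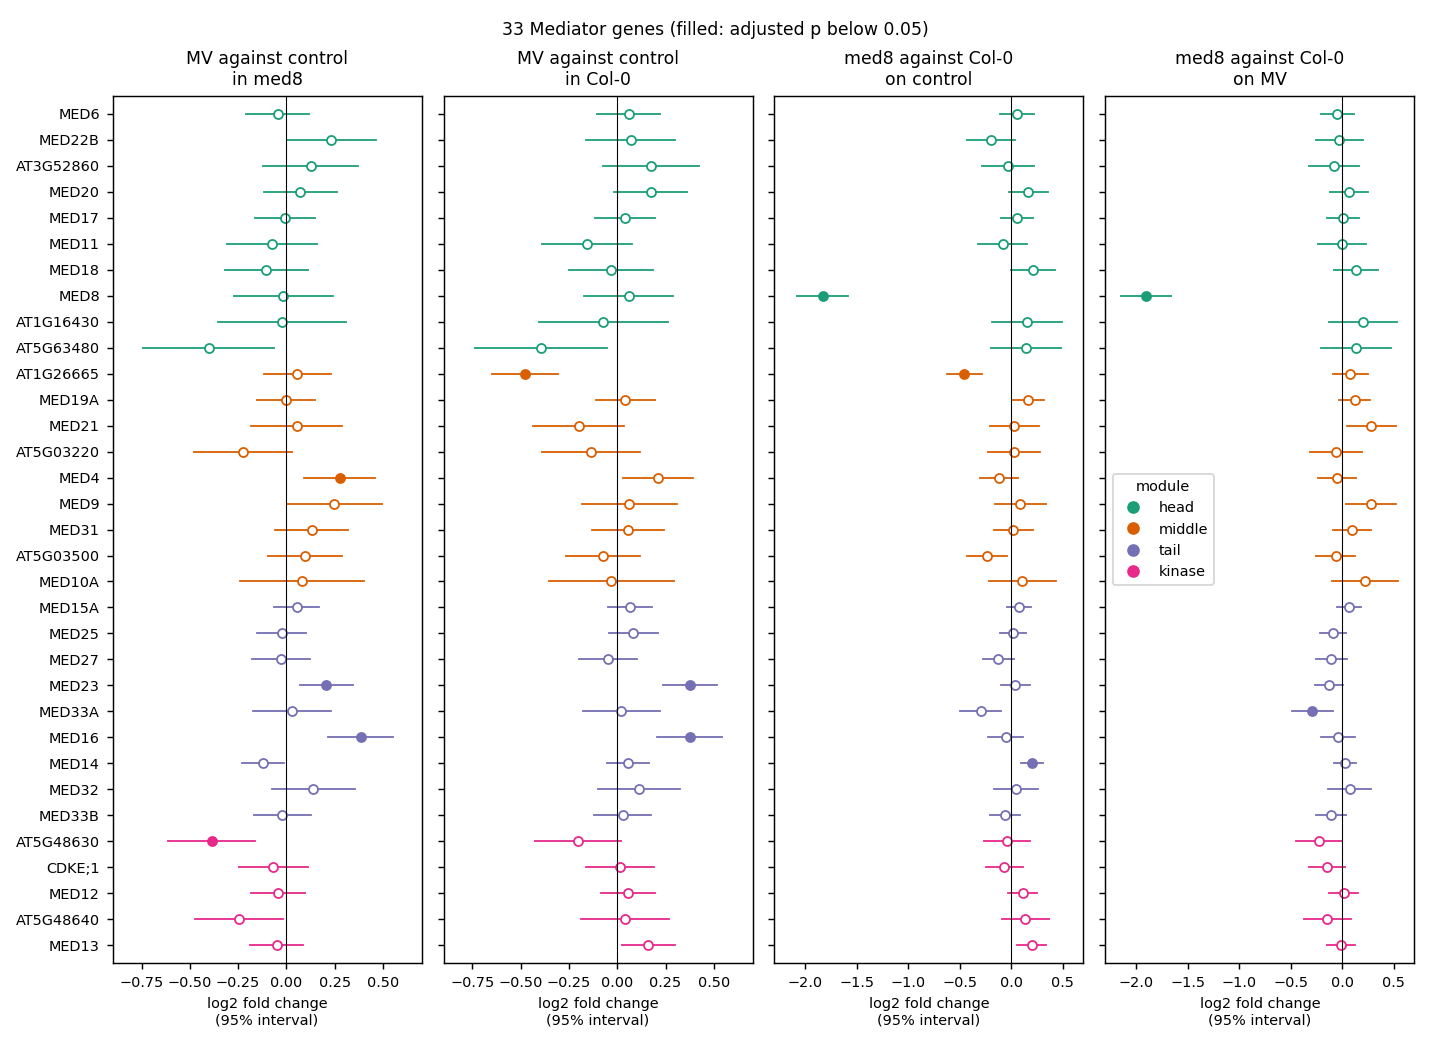
Log2 fold change with its 95% interval (horizontal axis) of the 33 Mediator genes in 4 comparisons, by module, with filled points for an adjusted p below 0.05. MED8 stands alone near -1.8 to -1.9 in the genotype comparisons, and the other genes lie between -0.48 and 0.39.

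The Med10 gene AT1G26665, at chr1:9214072-9215557 on the plus strand, had 22.7, 24.8 and 26.0 CPM in med8 on methyl viologen and 24.5, 24.3 and 21.8 CPM in med8 on control medium. Col-0 libraries had 22.8, 22.3 and 24.6 CPM on methyl viologen and 30.7, 31.2 and 35.03 CPM on control medium. The Col-0 control libraries were all higher than the 9 others, which overlapped among themselves. The gene fell by 0.48 ± 0.079 with methyl viologen in Col-0 (edgeR adjusted p = 0.000928) and fell by 0.46 ± 0.079 on control medium in med8 against Col-0 (edgeR adjusted p = 0.00856). The second was lost when only the groups compared were fitted (edgeR adjusted p = 0.0668). These comparisons share the Col-0 control libraries. The methyl viologen effect in med8 was 0.057 (95% interval -0.116 to 0.23), and the genotype difference on methyl viologen was 0.079 (-0.093 to 0.252). The effect of methyl viologen in med8 minus that in Col-0 was 0.54 ± 0.112 (edgeR adjusted p = 0.00824). That made AT1G26665 the 1 of 33 Mediator genes with a called interaction, against 13.9% of all loci tested (6.25% higher and 7.66% lower). Without Col-0 control replicate 1 and med8 control replicate 3, the interaction was 0.50 (edgeR adjusted p = 0.00923).

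Its paralog MED10A lies on chromosome 5. The coding sequences are 85.3% identical, the longest identical stretch is 35 bases, and no 75-base stretch, the read length, is shared by their transcripts. One stretch of the coding sequence from each gene (TAIR10.1 through RefSeq, 5′ to 3′, with differing bases in capitals) shows how far reads can be told apart, with 56 of 60 bases identical. They lie at chr5:16778166-16778225 on the minus strand and chr1:9215361-9215420 on the plus strand.
MED10A: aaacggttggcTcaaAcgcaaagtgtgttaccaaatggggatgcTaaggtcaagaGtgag
AT1G26665: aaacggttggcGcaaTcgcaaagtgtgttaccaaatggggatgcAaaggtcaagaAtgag

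MED10A had 3.53, 4.32 and 4.62 CPM in med8 on methyl viologen and 4.44, 3.92 and 3.42 CPM in med8 on control medium. In Col-0 it had 3.82, 3.74 and 3.13 CPM on methyl viologen and 3.58, 3.94 and 3.41 CPM on control medium. All groups overlapped, and its interaction was 0.11 (95% interval -0.342 to 0.569), an interval that includes the value of AT1G26665. The share of AT1G26665 in the summed CPM of the pair was 85.6% ± 0.881 in med8 on methyl viologen, 85.8% ± 0.946 in med8 on control medium, 86.6% ± 1.78 in Col-0 on methyl viologen and 89.8% ± 1.20 in Col-0 on control medium (SD, n = 3 each).

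**Figure D3:**
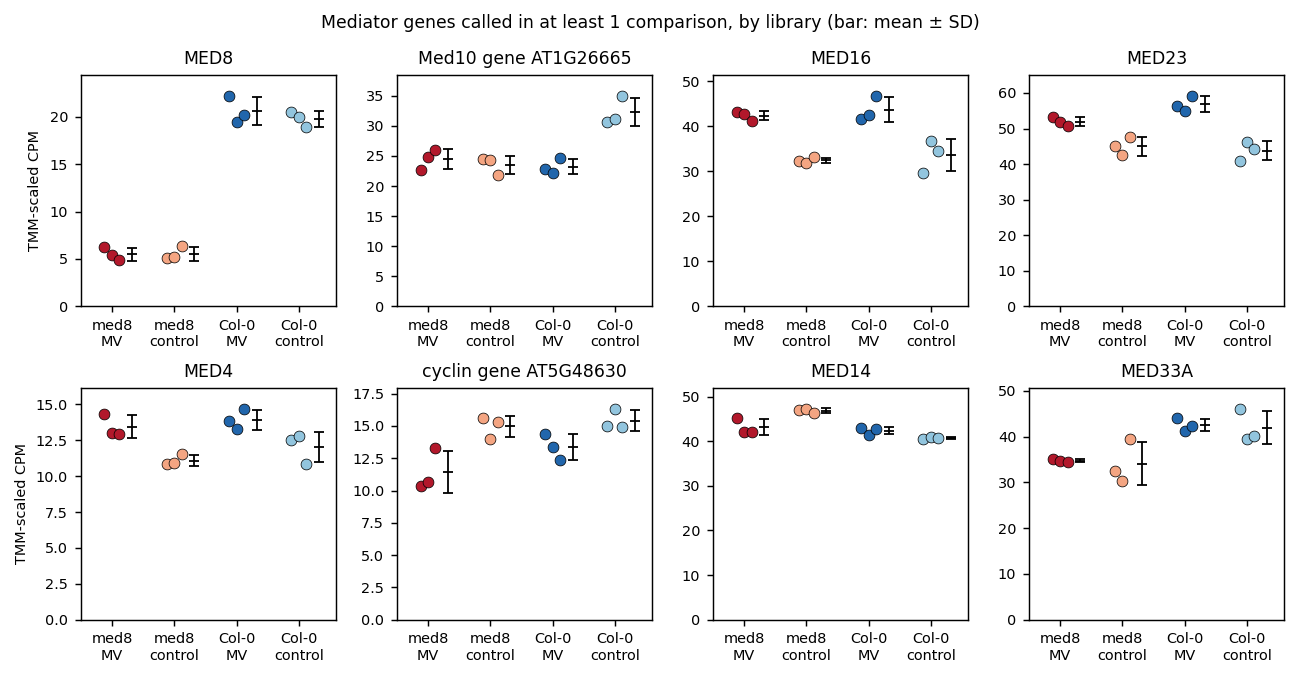
TMM-scaled CPM (vertical axis, from 0) of the 8 Mediator genes called in at least 1 comparison, with a point per library and the mean ± SD of 3 libraries beside them. MED8 is low in both med8 groups, AT1G26665 is high in Col-0 on control medium, and MED16 and MED23 are high in both methyl viologen groups.

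With methyl viologen in med8, MED16, MED23 and MED4 rose and AT5G48630 fell. These 4 of 33 genes compare with 43.1% of all loci tested (21.8% higher and 21.2% lower). By edgeR 9 of the 33 had an unadjusted p below 0.05, and the median fold change was -0.009, against 0.031 over all loci tested. With methyl viologen in Col-0, MED16 and MED23 rose and AT1G26665 fell, 3 of 33 against 28.8% of all loci tested (15.4% higher and 13.4% lower), with a median of 0.042 against -0.001. These methyl viologen comparisons share no library. In med8 the methyl viologen libraries all lay above the control libraries for 4 of the 33 genes and all below for 4. Over the 20741 loci tested the counts were 5833 and 5194. In Col-0 they were 9 and 4 of the 33 genes, and 4740 and 4424 of the loci tested, so such a separation was common. In the head module 0 of 10 genes passed in either comparison by edgeR, with 2 in med8 and 1 in Col-0 at an unadjusted p below 0.05. DESeq2 called 1 lower in med8 and 0 in Col-0.

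MED16, a tail subunit known for roles in cold acclimation and immunity, had 43.2, 42.6 and 41.2 CPM on methyl viologen in med8, against 32.4, 31.8 and 33.1 CPM on control medium. In Col-0 it had 41.7, 42.4 and 46.8 CPM on methyl viologen, against 29.7, 36.7 and 34.6 CPM on control medium. In both genotypes all methyl viologen libraries were higher. The rise was 0.39 ± 0.077 in med8 (edgeR adjusted p = 0.00191) and 0.38 ± 0.077 in Col-0 (edgeR adjusted p = 0.0036), or 0.30 in Col-0 without the libraries that stood apart. The difference between the effects was 0.010 (95% interval -0.229 to 0.248).

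MED16 lies at chr4:2497598-2505554 on the plus strand. The 250 bases before its start (chr4:2497348-2497597, TAIR10.1) overlap no annotated gene, and are shown because MED16 rose in both genotypes, with the W-box core TTGAC, or its reverse complement, in capitals.
MED16: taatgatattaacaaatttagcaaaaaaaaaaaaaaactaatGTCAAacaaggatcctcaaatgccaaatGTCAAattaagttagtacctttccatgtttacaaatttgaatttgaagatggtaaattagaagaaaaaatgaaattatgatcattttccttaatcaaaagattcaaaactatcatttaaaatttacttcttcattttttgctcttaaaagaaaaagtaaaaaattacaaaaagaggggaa
Searched on both strands, this core was present in the upstream windows of 14 of the 33 genes, 42.4%, against 44.9% of 27443 windows. The G-box CACGTG was in 0 of 33 windows against 6.5%, the evening element AAAATATCT in 0 against 2.4%, and the CCA1-binding site AAAAATCT in 4 of 33, 12.1%, against 6.7%.

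MED23, a tail subunit gene, had 53.2, 51.8 and 50.8 CPM on methyl viologen in med8, against 45.0, 42.4 and 47.7 CPM on control medium. In Col-0 it had 56.4, 54.9 and 59.3 CPM on methyl viologen, against 41.0, 46.1 and 44.3 CPM on control medium. In both genotypes the methyl viologen libraries all lay above the control libraries. The rise was 0.21 ± 0.063 in med8 (edgeR adjusted p = 0.0205) and 0.38 ± 0.063 in Col-0 (edgeR adjusted p = 0.00106). The difference between the effects was -0.17 (95% interval -0.366 to 0.026, edgeR adjusted p = 0.258). In med8 the call was lost without med8 replicate 1 or 2 of either medium, with adjusted p up to 0.0856.

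MED4, a middle subunit gene, had 14.4, 13.0 and 12.9 CPM on methyl viologen in med8, against 10.8, 10.9 and 11.5 CPM on control medium. The groups did not overlap, and the rise was 0.28 ± 0.084 (edgeR adjusted p = 0.0199), lost without med8 control replicate 1 or 2 or med8 methyl viologen replicate 1, with adjusted p up to 0.0794. In Col-0 it had 13.8, 13.3 and 14.7 CPM on methyl viologen, against 12.5, 12.8 and 10.8 CPM on control medium. The methyl viologen libraries were all higher, a difference of 0.21 (95% interval 0.028 to 0.393) that did not pass (edgeR adjusted p = 0.0811). The difference between the effects was 0.065 (-0.194 to 0.325).

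AT5G48630 and AT5G48640 are the cyclin genes of the kinase module. They lie side by side on the minus strand of chromosome 5, at chr5:19721465-19723307 and chr5:19723388-19725748, with 80 bases between them. Their coding sequences are 71.0% identical with no identical stretch over 15 bases, so reads of 75 bases are not shared. The windows below (chr5:19724719-19724778 and chr5:19722529-19722588, minus strand, TAIR10.1, differing bases in capitals) have 48 of 60 bases identical.
AT5G48640: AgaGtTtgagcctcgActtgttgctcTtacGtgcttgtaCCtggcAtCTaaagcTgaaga
AT5G48630: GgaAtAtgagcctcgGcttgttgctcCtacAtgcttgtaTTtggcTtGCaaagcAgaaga

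AT5G48630 had 10.3, 10.7 and 13.3 CPM on methyl viologen in med8, against 15.6, 14.0 and 15.3 CPM on control medium. The groups did not overlap, and the gene fell by 0.39 ± 0.103 (edgeR adjusted p = 0.00999). In Col-0 it had 14.4, 13.4 and 12.4 CPM on methyl viologen, against 15.01, 16.3 and 14.9 CPM on control medium. There too the methyl viologen libraries were all lower, and the difference of -0.20 did not pass (95% interval -0.428 to 0.019, edgeR adjusted p = 0.161). The neighbour AT5G48640 had 10.14, 10.2 and 11.5 CPM on methyl viologen in med8, against 12.2, 12.4 and 13.1 CPM on control medium. The methyl viologen libraries were all lower, and the difference of -0.24 did not pass (95% interval -0.472 to -0.016, edgeR adjusted p = 0.0796). In Col-0 AT5G48640 had 13.7, 11.1 and 10.5 CPM on methyl viologen, against 11.1, 12.1 and 11.1 CPM on control medium, which overlapped, at 0.040 (-0.188 to 0.268). The interactions were -0.18 (-0.50 to 0.135) for AT5G48630 and -0.28 (-0.607 to 0.038) for AT5G48640, and neither passed.

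The remaining 25 genes passed in no comparison by edgeR. DESeq2 called a head gene among them lower with methyl viologen in med8. It called a kinase module gene among them higher in med8 against Col-0 on control medium. Of the 25, AT5G63480, an annotated Mediator subunit gene, had the widest range. It averaged 3.77 CPM on methyl viologen and 4.996 CPM on control medium in med8, and 3.45 and 4.52 CPM in Col-0. The differences of -0.40 (95% interval -0.743 to -0.063) and -0.39 (-0.735 to -0.051) had edgeR adjusted p of 0.0545 and 0.0817. Genes on the other strand overlap 33.5% of its exonic length, and 22.5% of that of the head gene AT3G52860, so counts of both are uncertain while the strand setting of the counting is not given. AT5G03220 and AT5G03500, the Med7 genes, have 96.1% identical coding bases and share 92 stretches of 75 bases, so their counts may be split between them. The 95% intervals of the methyl viologen effects in med8 reached a median of 0.189 to either side on the log2 scale. For many of these genes, differences much smaller than that could have been missed. Some intervals were narrower. That of MED14 was -0.228 to -0.011 around an effect of -0.12 that did not pass (edgeR adjusted p = 0.0722). It was called in 4 of 20 alternative fits.

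Genes that work beside Mediator were followed through lists, which were chosen with earlier results of these data known. Of the 15 listed RNA polymerase II subunit genes, 6 rose in med8 against Col-0 on methyl viologen and 2 on control medium, against 10.8% and 2.81% of all loci tested. On control medium DESeq2 called 5 higher. Upper-quartile scaling, the replicate block, the groups compared alone and each fit without 1 library, apart from those without Col-0 control replicate 1 or med8 control replicate 3, called 1. On methyl viologen the alternatives called 4 to 8. By edgeR and by DESeq2 0 fell. All 15 fold changes were above 0 on each medium, with medians of 0.247 on methyl viologen and 0.217 on control medium, against 0.011 and 0.003 over all loci tested. The same held under RLE and upper-quartile scaling, with all 15 above 0. NRPB1, the largest subunit of RNA polymerase II, had 223, 215 and 216 CPM in med8 libraries on methyl viologen, against 166, 173 and 167 CPM in Col-0 libraries. On control medium it had 230, 236 and 252 CPM in med8 libraries, against 168, 158 and 154 CPM in Col-0 libraries. The groups did not overlap on either medium, and NRPB1 rose by 0.37 ± 0.062 (edgeR adjusted p = 0.00133) and 0.58 ± 0.062 (edgeR adjusted p = 0.000995).

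The other RNA polymerase II genes with the smallest adjusted p were NRPB11 and NRPB12. NRPB11 had 54.0, 48.7 and 47.7 CPM in med8 on methyl viologen, against 35.8, 35.1 and 41.4 CPM in Col-0, and rose by 0.42 ± 0.074 (edgeR adjusted p = 0.00174). NRPB12 rose with methyl viologen by 0.39 ± 0.077 in med8 (edgeR adjusted p = 0.00192) and 0.41 ± 0.078 in Col-0 (edgeR adjusted p = 0.00241). In all, 7 of the 15 rose with methyl viologen in med8, against 21.8% of all loci tested, and 4 without med8 control replicate 1 or 2 or med8 methyl viologen replicate 1. In Col-0 3 of the 15 rose, a share of 20% near the 15.4% of all loci tested. By edgeR 0 fell in either. By DESeq2 1 fell in med8 and 0 in Col-0.

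Of 11 basal transcription factor genes, 4 rose in med8 against Col-0 on methyl viologen and 2 on control medium, against 10.8% and 2.81% of all loci tested. The first count was 2 without med8 methyl viologen replicate 1 and up to 5 in other fits. The second was 0 with only the groups compared, and 1 with the replicate block and without Col-0 control replicate 2 or 3, any one med8 control library, or med8 methyl viologen replicate 2. TFIIB1, which encodes the factor that brings the polymerase to the promoter, had 59.6, 61.2 and 59.7 CPM in med8 on methyl viologen, against 43.3, 43.6 and 42.4 CPM in Col-0. On control medium it had 52.3, 53.8 and 47.6 CPM in med8, against 36.3, 37.8 and 40.7 CPM in Col-0. The groups did not overlap, and TFIIB1 rose by 0.48 ± 0.061 (edgeR adjusted p = 0.000209) and 0.42 ± 0.062 (edgeR adjusted p = 0.00489), the second lost when only the groups compared were fitted (edgeR adjusted p = 0.0643). XPB2, a helicase of TFIIH, rose by 0.25 ± 0.059 on methyl viologen (edgeR adjusted p = 0.00892) and by 0.25 ± 0.059 on control medium (edgeR adjusted p = 0.0303), the second lost in 8 of 20 alternative fits. Those were the replicate block, the groups compared alone, and the fits without Col-0 control replicate 2 or 3, any one med8 control library, or med8 methyl viologen replicate 2. CDKD;2, a kinase gene of the same list, rose with methyl viologen in Col-0 by 0.34 ± 0.083 (edgeR adjusted p = 0.0106). In med8 its effect was 0.037 (edgeR adjusted p = 0.752), and the interaction of -0.30 did not pass (edgeR adjusted p = 0.124). With methyl viologen 2 of the 11 rose in Col-0, 18.2% against 15.4% of all loci tested, and 1 rose in med8, 9.09% against 21.8%. By edgeR 0 fell in either, and by DESeq2 2 fell in med8 and 0 in Col-0.

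**Figure D4:**
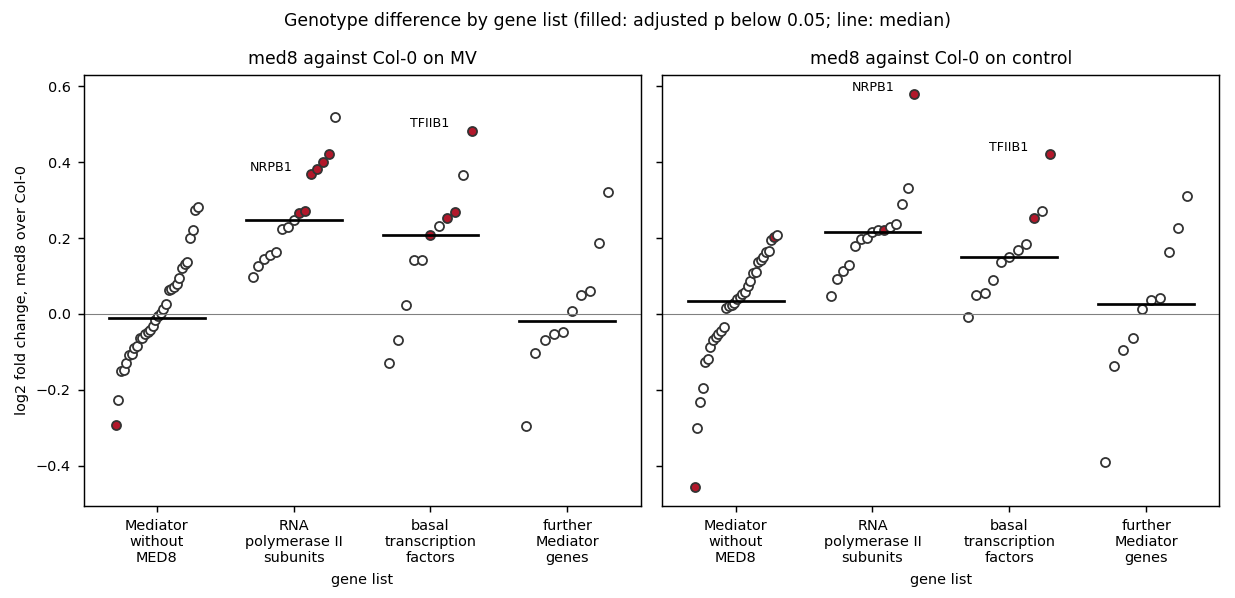
Log2 fold change of med8 over Col-0 (vertical axis) on methyl viologen (left) and on control medium (right), with a point per gene, filled for an adjusted p below 0.05, and a line at the median of each list. The 15 RNA polymerase II subunit genes all lie above 0, with medians of 0.247 and 0.217, while the 32 Mediator genes without MED8 have medians of -0.01 and 0.035.

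Of 12 further genes listed for Mediator, 10 were tested. With methyl viologen in med8 3 of the 10 were called, 30% against 43.1% of all loci tested. In Col-0 2 of the 10 were called, 20% against 28.8%. In med8 against Col-0 0 of the 10 were called, against 23.7% of all loci tested on methyl viologen and 5.79% on control medium. The alternative fits called 0 to 1 in each of these genotype comparisons. The fibrillarin genes FIB2 and FIB1, which encode nucleolar RNA methyltransferases, rose with methyl viologen in both genotypes. FIB2 had 86.8, 76.4 and 67.7 CPM on methyl viologen in med8, against 29.6, 24.1 and 47.0 CPM on control medium. In Col-0 it had 63.9, 45.7 and 75.3 CPM on methyl viologen, against 31.2, 24.4 and 25.5 CPM on control medium. The groups did not overlap in either genotype, and FIB2 rose by 1.20 ± 0.237 in med8 (edgeR adjusted p = 0.00189) and by 1.19 ± 0.238 in Col-0 (edgeR adjusted p = 0.00332). FIB1 rose by 0.51 ± 0.148 in med8 (edgeR adjusted p = 0.0154) and by 0.62 ± 0.148 in Col-0 (edgeR adjusted p = 0.00845). The first was lost without med8 control replicate 1 or 2 or med8 methyl viologen replicate 1, with adjusted p up to 0.0593. AT5G19480 fell with methyl viologen in med8 by 0.22 ± 0.076 (edgeR adjusted p = 0.0359), a call lost in 6 of 20 alternative fits, with adjusted p up to 0.12. Those were upper-quartile scaling, the groups compared alone, and the fits without med8 control replicate 1 or 2 or med8 methyl viologen replicate 1 or 3.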

How the data were processed

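Per the labels, RNA was extracted from seedlings and TruSeq Stranded libraries were read as 75 bp single ends. The authors deposited raw counts per gene; the submitters' processing notes name Trim Galore 0.3.3, TopHat2 2.1.0, featureCounts of Subread 1.4.6 and the TAIR10 build. The strand setting of the counting is not given in the sources used here. The table's loci each have at least 5 counts in at least 3 libraries.

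Counts were fitted in edgeR 4.0.16 (R 4.3.3) with TMM scaling, filterByExpr (minimum count 10, minimum total 15, 802 loci removed) and its robust quasi-likelihood fit, using all 12 libraries and a mean for each of the 4 groups, with Benjamini-Hochberg adjustment over 20741 loci and a threshold of 0.05. The interaction is the methyl viologen effect in med8 minus that in Col-0. The code was tested on simulated data. Replicate numbers are not stated to mark a shared batch, and same-numbered libraries did not deviate together in every pair, so no block was used.

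Exon lengths, coordinates and sequences came from RefSeq TAIR10.1, and coding sequences of paralogs were aligned with MAFFT 7.526. Genes without a RefSeq symbol are named by locus. The members and lists were chosen with earlier results of these data known. Named with values were MED8, each member called in any comparison, the paralogs of called members, and up to 3 called genes of each other list with the smallest adjusted p; AT5G63480, AT3G52860, the Med7 genes, MED19A and MED15A were picked once their values were known. The alternatives tried were upper-quartile or RLE scaling, no filter, at least 1 CPM in 3 libraries, DESeq2 1.42.0, the groups compared alone, a replicate block, each library left out, and both libraries that stood apart left out.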

Additional observations from a re-analysis of the deposited data

Results flagged for a closer look

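The effect of methyl viologen on the Med10 gene AT1G26665 differed between the genotypes by the interaction term, at 0.535 ± 0.112 on the log2 scale (edgeR adjusted p = 0.00824). The effect was 0.057 in med8, with libraries that overlapped, and -0.478 in Col-0, where all 3 methyl viologen libraries were lower. The interaction was called in 19 of 19 alternative fits, at 0.472 to 0.586. Those fits reuse the same libraries, so they are not independent of each other. Mean levels were 24.5 CPM in med8 on methyl viologen, 23.6 in med8 on control medium and 23.2 in Col-0 on methyl viologen. Only Col-0 on control medium stood apart, at 32.3 CPM.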

How the results depend on the processing

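The counts of called Mediator genes, 4 with methyl viologen in med8, 3 with it in Col-0, 2 in med8 on methyl viologen, 3 in med8 on control medium and 1 interaction, were recomputed under every alternative. Fits of only the groups compared called 4 genes for med8 on methyl viologen and 1 for med8 on control medium, and upper-quartile scaling called 1 for med8 on methyl viologen. With methyl viologen in med8, RLE scaling, DESeq2 and leaving out both libraries that stood apart each called 6. DESeq2 called 4 for med8 on control medium, and leaving out both libraries called 4 there, 4 with methyl viologen in Col-0 and 3 for med8 on methyl viologen. Leaving out each library in turn gave 2 to 5, 3 to 5, 1 to 3, 2 to 4 and 1 to 1 genes in the same order. With the replicate block the counts were 4, 3, 2, 2 and 1; same-numbered libraries had a median correlation of deviations of 0.0665 (-0.46 to 0.541), so the numbers are not taken as pairs. MED8 in both genotype comparisons, MED16 in both methyl viologen comparisons, MED23 and AT1G26665 with methyl viologen in Col-0 and AT5G48630 with it in med8 were called in every alternative. AT1G26665 in med8 on control medium was lost when only the groups compared were fitted (edgeR adjusted p = 0.0668). Over all loci, the 1200 calls for med8 on control medium became 2005 by DESeq2, 143 with only the groups compared, 1848 without both libraries that stood apart, 446 and 402 without Col-0 control replicate 2 or 3, and 631 without med8 control replicate 2. The 4906 for med8 on methyl viologen became 3211 without med8 methyl viologen replicate 2, and the 2885 interactions became 1912 without Col-0 methyl viologen replicate 1 and 1874 without med8 methyl viologen replicate 2. The cause of these shifts was not tested.

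Of 100 results for single genes, 28 changed sign in at least 1 alternative, 83 values in all, and 0 of the 83 were called in either fit (smallest edgeR adjusted p 0.475). RLE scaling and DESeq2 alike gave interactions of -0.009 for FIB2, -0.011 for MED16, -0.012 for MED33A and -0.02 for XPB2, and -0.004 for NRPB11 with methyl viologen in Col-0. Upper-quartile scaling gave 0.004 for MED33B and 0.009 for MED8 with methyl viologen in med8, -0.011 for NRPB11 with it in Col-0, and an NRPB12 interaction of 0.016. The replicate block gave -0.001 for NRPB11 with methyl viologen in Col-0, and no filter an XPB2 interaction of -0.001. Without both libraries that stood apart, the values with methyl viologen in med8 were -0.007 for AT1G26665, -0.043 for CDKD;2, -0.019 for MED10A and 0.083 for MED8, the genotype difference of MED23 on control medium was -0.031, and the interactions of FIB1 and XPB2 were 0.042 and -0.038.

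Leaving out each library in turn, the values with methyl viologen in med8 ran from -0.007 to 0.109 for AT1G26665, -0.043 to 0.092 for CDKD;2, -0.019 to 0.186 for MED10A, -0.052 to 0.132 for MED33A, -0.052 to 0.012 for MED33B and -0.11 to 0.083 for MED8. With methyl viologen in Col-0 they ran from -0.086 to 0.116 for AT5G48640, -0.084 to 0.054 for MED10A, -0.029 to 0.093 for MED33A, -0.03 to 0.065 for MED33B, 0 to 0.099 for MED8 and -0.078 to 0.046 for NRPB11. For med8 on methyl viologen they ran from -0.054 to 0.16 for FIB1, -0.009 to 0.043 for MED14 and -0.075 to 0.01 for MED16. For med8 on control medium they ran from -0.074 to 0.004 for AT5G48630, -0.012 to 0.3 for FIB1, -0.135 to 0.019 for MED16 and -0.005 to 0.084 for MED23. The interactions ran from -0.249 to 0.064 for FIB1, -0.183 to 0.32 for FIB2, -0.061 to 0.092 for MED16, -0.072 to 0.115 for MED33A, -0.101 to 0.007 for MED33B, -0.168 to 0.028 for MED8, -0.081 to 0.033 for NRPB12, -0.001 to 0.097 for TFIIB1 and -0.026 to 0.032 for XPB2.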
